A study of Mus musculus with 6 samples.

Results

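The genes described here are Gas6, Pros1, Axl, Mertk and Tyro3, 2 secreted ligands and 3 receptors that together form the TAM system. They were taken by symbol from the deposited expression table, where all 5 names were found once, among 54532 genes. The libraries came from the hippocampus of 3 wild-type mice (WT) and 3 knock-in mice (TG). TG mice carry the substitutions G82R and L85P in Slc1a2, the gene of the astrocytic glutamate transporter GLT-1, introduced with CRISPR/Cas9 on a C57BL/6N background, and WT mice were their littermates. The strain background was shared by both groups, the age of the mice and whether TG mice carried 1 or 2 edited copies are not given in the sources used here, and no drug was given. The labels number the mice within each group but do not describe litters, so p-values measure the spread between these 6 libraries. The comparison asks whether the ligands and receptors of this engulfment pathway differed in transcript level between TG and WT hippocampus.

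Tyro3, Axl and Mertk are receptor tyrosine kinases that do not touch the target cell themselves. Gas6 and protein S, the product of Pros1, bridge the gap: their N-terminal Gla domain, modified with the help of vitamin K, holds phosphatidylserine on dying cells, membranes or synapses, and their C-terminal part binds the receptor. In the brain, Mertk and Axl are known for engulfment by microglia and Mertk also for engulfment by astrocytes, while Tyro3 is best known in neurons. Gas6 binds all 3 receptors, and protein S is known as a ligand of Tyro3 and Mertk. Protein S also serves as a cofactor of activated protein C in coagulation.

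The ligands differ from the receptors in the part that carries their function, and those parts are shown from the GRCm38 mouse genome, within a single coding exon each. For the ligands, capitals mark 8 codons in the core of the Gla domain. Gas6 was read at chr8:13493870-13493947 on the minus strand, with codons 58 to 65 in capitals, and Pros1 at chr16:62885457-62885534 on the plus strand, with codons 54 to 61 in capitals.
Gas6: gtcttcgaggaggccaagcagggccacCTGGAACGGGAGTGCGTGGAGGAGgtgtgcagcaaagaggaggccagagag
Pros1: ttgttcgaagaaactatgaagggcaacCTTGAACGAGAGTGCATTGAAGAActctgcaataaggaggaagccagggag
The 2 ligand stretches held the same base at 56 of 78 positions and at 18 of the 24 capital positions, and 18 of 26 codons translated alike.

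For the receptors, capitals mark the 7 codons of the kinase domain signature by which the TAM family is recognised. Axl was read at chr7:25761414-25761488 on the minus strand, with codons 708 to 714 in capitals. Mertk was read at chr2:128793022-128793096 on the plus strand, with codons 760 to 766 in capitals. Tyro3 was read at chr2:119812879-119812953 on the plus strand, with codons 687 to 693 in capitals.
Axl: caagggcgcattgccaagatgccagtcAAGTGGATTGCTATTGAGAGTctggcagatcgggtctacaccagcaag
Mertk: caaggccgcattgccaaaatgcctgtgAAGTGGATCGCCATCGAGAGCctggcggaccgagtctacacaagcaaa
Tyro3: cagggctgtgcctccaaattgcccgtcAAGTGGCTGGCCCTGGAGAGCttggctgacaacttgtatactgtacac
Axl and Mertk were the closest pair, with 62 of 75 bases equal and all 25 codons translating alike. Tyro3 shared 43 of 75 bases with Axl and 47 of 75 with Mertk, and 15 of its 25 codons translated as in either of them. Over the whole translated coding sequences, identity was 42.0% between the ligands and 44.1% to 46.2% between the receptors, and it was 22.1% to 25.1% between a ligand and a receptor. No stretch of 50 bases in any of the 5 transcript sets recurred in another gene, so reads of that length could not be shared between these family members.

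The gene models placed Gas6 (ENSMUSG00000031451) at chr8:13465374-13494490 on the minus strand and Pros1 (ENSMUSG00000022912) at chr16:62854307-62929346 on the plus strand, each with 15 exons in its longest coding transcript. Axl (ENSMUSG00000002602) lay at chr7:25757273-25788705 on the minus strand, with 20 exons. Mertk (ENSMUSG00000014361) lay at chr2:128698956-128802894 and Tyro3 (ENSMUSG00000027298) at chr2:119797733-119818104, both on the plus strand of chromosome 2 with 19 exons. The 3' part of Gas6 overlaps Tmem255b on the opposite strand, which stood between 0.744 and 2.47 FPKM. Mertk overlaps the snoRNA gene Gm23172 on the same strand (0.436 to 2.00 FPKM) and Gm14011 on the opposite strand (0 to 0.185 FPKM). Whether counting used strand is not given in the sources used here. No 50-base stretch of the Gas6 or Mertk transcripts recurred in another gene on either strand.

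The 250 bases before the RefSeq start of Gas6 (chr8:13494536-13494785, minus strand, GRCm38.p6) are shown because Gas6 had the largest mean difference of the 5 genes. Capitals mark the GC box GGGCGG, searched on both strands.
Gas6 promoter: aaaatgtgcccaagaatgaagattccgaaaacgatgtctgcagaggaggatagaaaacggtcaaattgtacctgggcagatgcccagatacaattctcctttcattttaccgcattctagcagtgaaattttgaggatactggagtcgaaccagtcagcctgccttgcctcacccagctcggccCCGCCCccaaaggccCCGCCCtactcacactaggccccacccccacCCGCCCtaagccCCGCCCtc
Gas6 held 4 GC boxes, Pros1 5, Axl 1, and Mertk and Tyro3 3 each, and at least 1 was present in 32.7% of 32851 windows of this length. The interferon-stimulated response element core (GAAA, any 2 bases, GAAA) was in none of the 5 windows and in 2.98% of all. The interferon gamma activated site TTCNNNGAA occurred 1 time, in Pros1, and was in 7.02% of all windows. Neither TATAAA nor TGANTCA, found in 12.4% and 6.75% of all windows, occurred in the 5. These matches describe letters only.

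Reads on genes, recovered from the deposited values, ranged from 16081281 to 18751057. All 9 hippocampal neuron markers were detected in every library, with a summed level of 270 to 326 FPKM (reads scaled to gene length and library depth) in WT and 269 to 289 FPKM in TG. Slc1a2, the edited gene, was read at 202, 199.5 and 177 FPKM in WT and at 222, 207 and 217 FPKM in TG, and FPKM cannot show the base changes. The widest spread between libraries was that of the choroid plexus, the secretory epithelium beside the hippocampus. The summed level of its 12 markers, all above 0 in all libraries, was 82.7, 58.1 and 73.4 FPKM in WT1 to WT3 and 1218, 3848 and 66.6 FPKM in TG1 to TG3. Ttr, its most abundant transcript, stood at 49.8 to 73.0 FPKM in WT and at 1168, 3705 and 57.7 FPKM in TG. TG1 and TG2 thus stood apart from the other 4 libraries in these markers. Values of the 5 genes, their ratio, shares and sum are therefore also given with TG3 as the only TG library.

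Across the 5 genes, none passed the test between TG and WT. With limma and Benjamini-Hochberg adjustment over 20952 genes, 0 of 5 had an adjusted p under 0.05 and 0 of 5 an unadjusted p under 0.05. Limma-voom on the recovered reads gave 0 of 5 at the adjusted and 1 of 5, Gas6, at the unadjusted threshold. The background was low too: 0.00955% of all genes were called at the adjusted threshold, and at the unadjusted one 3.13% were higher and 2.78% lower in TG. The log2 fold change was above 0 for 4 of 5 genes, with a median of 0.07, while the median of all genes tested was -0.00197 and 49.6% of them were above 0. In 1 of 5 genes, Axl, all 3 TG libraries lay above all 3 WT libraries, a pattern seen in 6.35% of all genes.

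**Figure D1:**
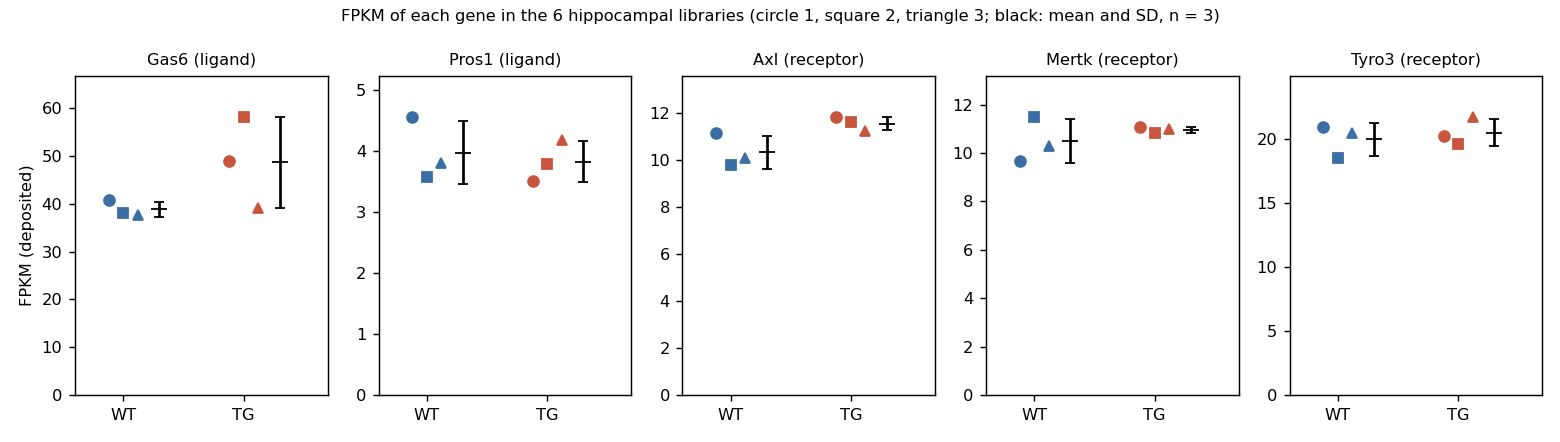
Deposited FPKM of the 2 ligands and 3 receptors in each library (vertical axis from 0, its range set per gene), with blue for WT, red for TG, and black bars for the mean and SD of 3 libraries. Gas6 is high in TG1 and TG2 (49.0 and 58.1 FPKM) and not in TG3 (39.1 FPKM), and Axl is the gene whose groups do not overlap.

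Gas6, the ligand with affinity for every TAM receptor, was the most abundant of the 5 and the most variable among TG mice. It was read at 40.7, 38.1 and 37.7 FPKM in WT1 to WT3 and at 49.0, 58.1 and 39.1 FPKM in TG1 to TG3. The 3 WT libraries lay close together, TG1 and TG2 lay above them, and TG3 fell between WT1 and WT2, so the groups overlapped. The mean was 38.8 ± 1.65 FPKM in WT and 48.7 ± 9.52 FPKM in TG (SD, n = 3 each), and the coefficient of variation was 4.24% in WT against 19.5% in TG. Over the WT mean, TG1 was 1.26-fold, TG2 1.496-fold and TG3 1.01-fold. The log2 fold change was 0.31 (SE 0.137, 95% interval -0.01 to 0.63, limma adjusted p = 0.786), a 1.24-fold difference with an interval of 0.990 to 1.55. These values rested on 1569 to 2654 reads per library, so 1 SD of counting error was at most 2.52% of the level.

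The libraries with high Gas6 were those with high choroid plexus markers. TG2 held the highest Gas6 level and the highest marker sum, TG1 came second in both, and TG3, whose marker sum of 66.6 FPKM lay within the WT range, had Gas6 within the WT range too. With TG3 as the only TG library, an alternative chosen after seeing the data, the log2 fold change of Gas6 was 0.0091 (limma adjusted p = 0.994, with the spread taken from WT). With the choroid plexus score (mean log2(FPKM + 0.1) of the 12 markers) as a covariate it was -0.017 (adjusted p = 0.9996), and with Ttr alone 0.0032 (adjusted p = 0.998). Without TG2 it was 0.17 (adjusted p = 0.812), and without TG3 it was 0.46 (adjusted p = 0.538). The marker sum was high in 2 of 3 TG libraries and in no WT library, so the genotype and the choroid plexus share in TG1 and TG2 cannot be told apart. In bulk tissue, fewer cells of a type and less RNA per cell cannot be told apart either.

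**Figure D2:**
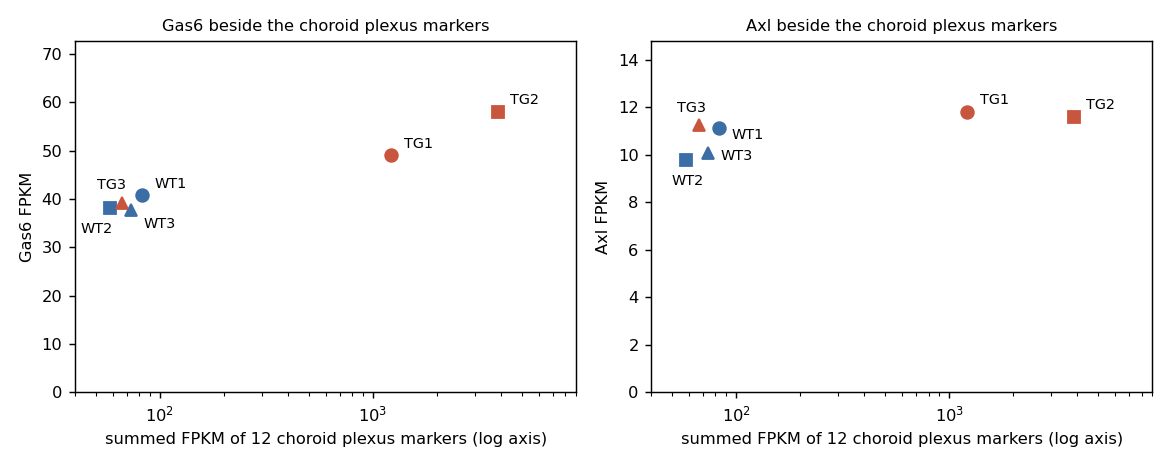
Gas6 (left) and Axl (right) FPKM against the summed FPKM of 12 choroid plexus markers on a log axis, 1 point per library, blue for WT and red for TG. Gas6 is highest in TG1 and TG2, whose marker sums are 1218 and 3848 FPKM, while the Axl level of TG3 (11.2 FPKM), with a sum of 66.6 FPKM, lies between WT1 (11.1 FPKM) and TG2 (11.6 FPKM), closest to WT1.

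The genes closest to Gas6 over the 6 libraries followed the same order of libraries. Among 11916 protein-coding genes, the highest Pearson correlations of log2(FPKM + 0.1) were with Tor3a (0.997), Enpp2 (0.996) and Sulf1 (0.995). Enpp2, which encodes the secreted lysophospholipase autotaxin, stood at 29.1, 24.9 and 22.2 FPKM in WT and at 124, 351 and 26.3 FPKM in TG. Over the 4 libraries without TG1 and TG2 the correlations were 0.972, 0.954 and 0.952. They are a description of few points that share library effects.

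Pros1, the gene of protein S, was the least abundant of the 5 and did not separate the groups. It was read at 4.55, 3.57 and 3.80 FPKM in WT and at 3.51, 3.78 and 4.19 FPKM in TG. WT1 was the highest and TG1 the lowest library, and the groups overlapped throughout. The mean was 3.98 ± 0.511 FPKM in WT and 3.82 ± 0.340 FPKM in TG (SD, n = 3 each). TG against WT gave a log2 fold change of -0.05 (SE 0.123, 95% interval -0.34 to 0.24, limma adjusted p = 0.928), which leaves room for a fold between 0.790 and 1.18. With 227 to 344 reads per library, counting error alone was 5.39% to 6.64%. Its sign turned in 5 of 20 alternatives, so no direction is given. Its closest genes were Fam161b (r = 0.991), mt-Atp6 (0.986), a subunit of mitochondrial ATP synthase, and Cnn2 (0.974).

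The balance of the ligands followed Gas6. The ratio of Gas6 to Pros1 FPKM was 8.95, 10.7 and 9.91 in WT and 14.0, 15.4 and 9.34 in TG. TG1 and TG2 lay above every WT library, and TG3 lay between WT1 and WT3. The mean difference of the log2 ratio was 0.36, with an exact two-sided permutation p = 0.3, where 3 against 3 libraries cannot go below 0.1. With TG3 alone it was -0.073 (exact permutation p = 0.75, where 1 against 3 libraries cannot go below 0.25).

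Axl, the receptor that binds Gas6 but not protein S, was the one gene with separate groups. It was read at 11.1, 9.78 and 10.1 FPKM in WT and at 11.8, 11.6 and 11.2 FPKM in TG. The lowest TG library, TG3, stood 0.110 FPKM above the highest WT library, WT1, and 1 SD of counting error was 0.346 FPKM in WT1 and 0.352 FPKM in TG3, so this gap was within counting error. The mean was 10.3 ± 0.713 FPKM in WT and 11.6 ± 0.289 FPKM in TG (SD, n = 3 each). The log2 fold change was 0.16 (SE 0.0758, 95% interval -0.02 to 0.34, limma adjusted p = 0.786), a 1.12-fold difference with an interval of 0.989 to 1.27, on 795 to 1047 reads per library. Axl remained above 0 in all 20 alternatives, from 0.05 to 0.22. With TG3 alone it was 0.12 (adjusted p = 0.977), and with the choroid plexus score it was 0.12 (adjusted p = 0.9996). Whether Gas6 and Axl differ in this respect was not tested.

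Axl moved with the log2 marker scores of endothelium and of border macrophages, the macrophages of vessels and meninges. The 10 endothelial genes had a median log2 level, relative to the WT mean, of 0.10, -0.08 and -0.12 in WT1 to WT3 and of 0.16, 0.14 and 0.08 in TG1 to TG3, the order of libraries being close to that of Axl. Their summed level did not follow that order. It was 95.1, 86.2 and 98.2 FPKM in WT1 to WT3 and 98.4, 94.4 and 94.3 FPKM in TG1 to TG3. WT3 thus lay above TG2 and TG3 in this sum, while its Axl level was 10.1 FPKM. Adjusted for an endothelium score, an alternative added with the data in view, the log2 fold change of Axl was 0.05 (adjusted p = 1.00). The 7 border macrophage markers had median log2 levels of 0.30, -0.15 and -0.06 in WT1 to WT3 and of 0.37, 0.18 and 0.48 in TG1 to TG3. Over the 6 libraries, which share library effects, the Pearson correlation of Axl was 0.974 with the endothelium score, 0.934 with the border macrophage score and 0.707 with the choroid plexus score, given as a description. The part of border macrophages in the Axl values was not tested. The genes closest to Axl were Radil (r = 0.994), Gramd4 (0.990) and Pik3r3 (0.989).

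Mertk, the receptor most closely tied to the clearance of dying cells, was as abundant as Axl and did not separate the groups. It was read at 9.68, 11.5 and 10.3 FPKM in WT and at 11.1, 10.8 and 11.01 FPKM in TG. The TG libraries lay inside the WT range and were close to each other, with a coefficient of variation of 1.16%. The mean was 10.5 ± 0.908 FPKM in WT and 10.96 ± 0.127 FPKM in TG (SD, n = 3 each). Between groups the log2 fold change was 0.07 (SE 0.0813, 95% interval -0.12 to 0.26, limma adjusted p = 0.840), which leaves room for a fold between 0.919 and 1.20. Each value rested on 759 to 862 reads. The log2 fold change of Mertk was 0.074 with TG3 alone and 0.087 with the choroid plexus score. Its closest genes were Dele1 (r = 0.991), Xdh (0.984), the gene of xanthine dehydrogenase, and Glp2r (0.982).

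Tyro3 was the most abundant of the 3 receptors. It was read at 21.0, 18.6 and 20.5 FPKM in WT and at 20.3, 19.6 and 21.7 FPKM in TG, with WT2 lowest and TG3 highest. The mean was 20.005 ± 1.26 FPKM in WT and 20.5 ± 1.08 FPKM in TG (SD, n = 3 each). Between groups the log2 fold change was 0.04 (SE 0.0763, 95% interval -0.14 to 0.22, limma adjusted p = 0.908), which leaves room for a fold between 0.907 and 1.16. Its sign turned in 3 of 20 alternatives. The log2 fold change of Tyro3 was 0.12 with TG3 alone and 0.12 with the choroid plexus score, close to that of Axl. The genes closest to Tyro3 were Colgalt2 (r = 0.980), Ppp1r18 (0.977) and Lgi2 (0.976).

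**Figure D3:**
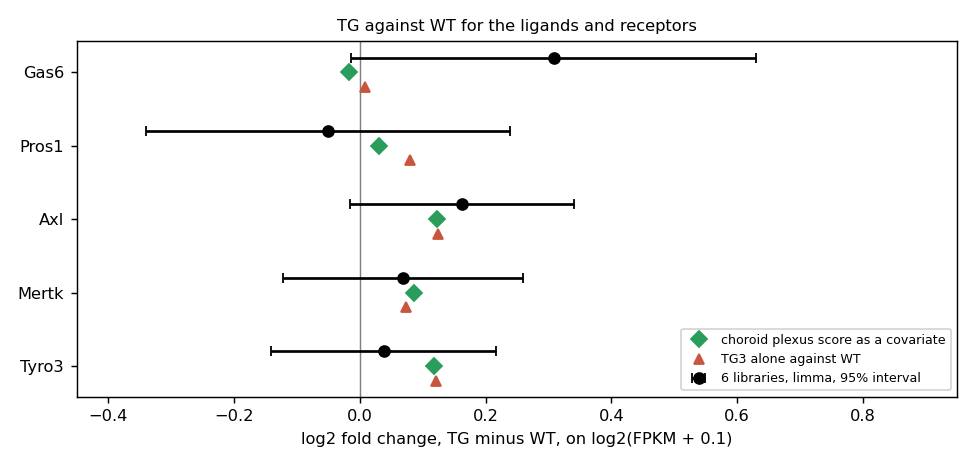
Log2 fold change of TG against WT for each gene on log2(FPKM + 0.1), as the limma estimate from 6 libraries with its 95% interval (black), with the choroid plexus score as a covariate (green) and with TG3 as the only TG library (red). Every black interval includes 0. Gas6 falls from 0.31 to -0.017 and 0.0091, Axl goes from 0.16 to 0.12 in both, and Tyro3 from 0.04 to 0.12 in both. Mertk goes from 0.07 to 0.087 and 0.074, and Pros1 from -0.05 to 0.031 and 0.080.

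In order of level over all 6 libraries, per gene length, Gas6 (43.8 FPKM) came first, then Tyro3 (20.3), Axl (10.9), Mertk (10.7) and Pros1 (3.90). The ranges of Axl and Mertk overlapped, and those of all other neighbours in this order did not. Tyro3 made up 49.0 ± 2.04% of the summed receptor FPKM in WT and 47.7 ± 1.50% in TG, Mertk 25.7 ± 2.85% and 25.5 ± 0.384%, and Axl 25.3 ± 1.18% and 26.9 ± 1.12% (SD, n = 3 each). The 3 shares differed by -1.31, -0.249 and 1.56 percentage points, with exact permutation p-values of 0.4, 0.9 and 0.2 and Benjamini-Hochberg adjusted values of 0.6, 0.9 and 0.6. Summed over the 3 receptors, the level was 41.8, 39.8 and 40.9 FPKM in WT and 43.1, 42.0 and 44.0 FPKM in TG. In this sum, which was formed after seeing the data, the groups did not overlap and TG was higher by 2.24 FPKM on average (exact permutation p = 0.1, the smallest that the design allows). With TG3 alone the sum was 3.17 FPKM higher (exact permutation p = 0.25, the smallest for 1 against 3), and the shares of Tyro3, Mertk and Axl differed by 0.412, -0.688 and 0.275 percentage points (exact permutation p-values of 1, 0.75 and 1).

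**Figure D4:**
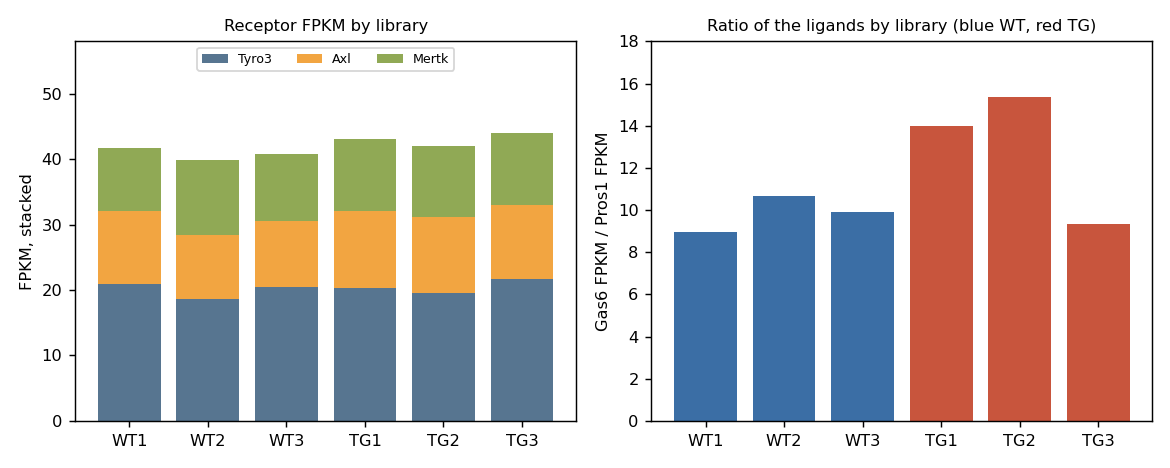
Left, FPKM of Tyro3, Axl and Mertk stacked for each library; right, Gas6 FPKM divided by Pros1 FPKM for each library (both axes start at 0, blue WT, red TG). The receptor sums lie between 39.8 and 44.0 FPKM with Tyro3 near the midpoint of each bar, and the ligand ratio is high in TG1 and TG2 (14.0 and 15.4) but 9.34 in TG3.

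Around the 5 genes, 86 further genes were taken in 7 lists, of which 76 were tested. They cover vitamin K dependent carboxylation, signal relay, engulfment more widely and coagulation, and most are not part of the TAM system itself. At an unadjusted limma p under 0.05, 8 of 76 (10.5%) were higher and 0 were lower in TG, against 3.13% and 2.78% of all genes. Of the 76, 0 passed the adjusted threshold. The lists were chosen with earlier results of these data known, so these counts describe the lists and do not test them. With limma-voom, 11 were higher at the unadjusted threshold, and without TG1 the count of higher genes was 9. Their median log2 fold change was 0.11, and 15 of 76 had all TG libraries above all WT libraries, against 6.35% of all genes. With the choroid plexus score, with Ttr or with the endothelium score as a covariate, 0 were higher and 0 lower. Without TG2 the count of higher genes was 0, without WT3 it was 3, without WT2 it was 5, and without TG3 it was 4. The share of all genes at the unadjusted threshold was computed for the fit reported only. The counts of the alternatives, here and list by list below, therefore have no such share beside them.

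None of the genes that make and relay the signal passed a threshold in the fit reported. Of the 3 genes of vitamin K dependent carboxylation, which modifies Gas6 and protein S, 0 were past the unadjusted threshold, with a median log2 fold change of 0.08. Vkorc1, an enzyme that recycles vitamin K, was 1.58 ± 0.0800 FPKM in WT and 1.72 ± 0.181 FPKM in TG (limma adjusted p = 0.842). Its paralog Vkorc1l1 stood at 15.2 FPKM in both groups (limma adjusted p = 0.998). Of 15 genes for receptor shedding and signal relay, which include the proteases Adam10 and Adam17, 0 were past that threshold, with a median of 0.09. This count was 1 without WT3 and 1 without TG1. The smallest p belonged to Vav1, a guanine nucleotide exchange factor of blood cells and microglia, at 0.957 ± 0.170 and 1.29 ± 0.114 FPKM (log2 fold change 0.40, limma adjusted p = 0.786). The adaptor Grb2, the most abundant of them, stood at 55.4 ± 1.34 and 55.2 ± 2.36 FPKM.

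Other bridging molecules and engulfment receptors held 5 of the 8 genes. Of 10 bridging molecules tested, 1 passed the unadjusted threshold, the complement component C4b, at 10.5, 8.71 and 6.85 FPKM in WT and 10.3, 14.9 and 14.2 FPKM in TG (log2 fold change 0.59, limma adjusted p = 0.786). TG2 and TG3 were the high libraries and TG1 was in the WT range, an order that differs from that of Gas6. The count of 1 fell to 0 without TG2 and without TG3 and rose to 4 without TG1. C1qa, the most abundant of them and a subunit of the complement initiator C1q, was 47.5 ± 2.73 FPKM in WT and 51.3 ± 9.18 FPKM in TG. Of 20 engulfment receptors tested, 4 passed it, all higher in TG. Itgb2, the beta chain of complement receptor 3, was read at 2.27, 1.60 and 1.89 FPKM in WT and 2.34, 3.18 and 3.07 FPKM in TG (log2 fold change 0.55, limma adjusted p = 0.786). The others, named after their values were seen, were the microglial lipid receptor Trem2 (log2 fold change 0.26), the integrin Itgb5 (0.27) and the scavenger receptor Stab1 (0.34), each with a limma adjusted p = 0.786. Itgam, the alpha chain of complement receptor 3, had a log2 fold change of 0.04, and Tyrobp, the adaptor of Trem2, one of -0.21. Both were also named after their values were seen, and 14 of the 20 tested receptors were above 0. Sirpa, the receptor of the "don't eat me" signal CD47 and the most abundant of this list, stood at 75.6 ± 2.01 and 79.2 ± 3.57 FPKM. The count of 4 receptors was 0 without TG2, 1 without TG3, 1 without WT3, 2 without WT2 and 1 with the replicate block.

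Of 13 genes of the engulfment machinery, 2 passed the unadjusted threshold, the lipid transporter Abca7 (2.80 ± 0.393 and 3.58 ± 0.413 FPKM, log2 fold change 0.34, limma adjusted p = 0.786) and the small GTPase Rac2 (log2 fold change 0.70, adjusted p = 0.786, named after its values were seen). The count of 2 was 0 without TG1, without TG2 and without WT3, and 1 without WT2. The late endosomal GTPase Rab7, the most abundant of them, was 108 ± 3.29 FPKM in WT and 103.6 ± 3.24 FPKM in TG. Of 10 genes that set the exposure of phosphatidylserine, 0 passed the unadjusted threshold. This count was 2 with the replicate block, 1 without WT1 and 1 without WT2. The smallest p in that list was that of the flippase Atp11a, at 5.63 ± 1.28 and 7.37 ± 1.01 FPKM (limma adjusted p = 0.786), and the flippase subunit Tmem30a, its most abundant gene, stood at 77.1 ± 8.89 and 71.8 ± 2.09 FPKM. Of 11 coagulation partners of protein S, 5 were tested and 1 passed the unadjusted threshold, Procr, the endothelial protein C receptor. Procr was at 0.167 ± 0.0140 FPKM in WT and 0.343 ± 0.0260 FPKM in TG (log2 fold change 0.73, limma adjusted p = 0.786). Its mean over all libraries, 0.255 FPKM, was near the floor, as the filter and the amount added before the log were both 0.1. This count of 1 fell to 0 whichever library was left out, and with the choroid plexus score or the replicate block. Tissue factor, F3, was 17.9 ± 3.17 and 16.8 ± 0.748 FPKM. Proc, C4bp, F2, F7, F9 and F10 were below the filter.

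**Figure D5:**
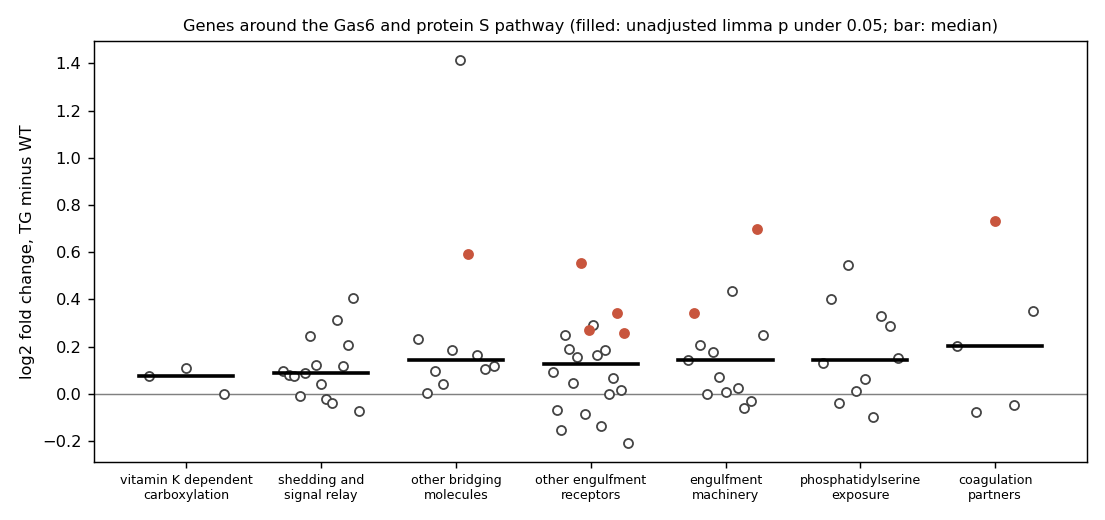
Log2 fold change of TG against WT for the 76 tested genes in 7 lists around the pathway, with filled points for an unadjusted limma p under 0.05 and a bar for the median of each list. The 8 filled points all lie above 0, and the open point highest in the plot is the complement gene C3, with a log2 fold change of 1.41 and an adjusted p = 0.789.

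The cell types of the tissue overlapped between groups in summed marker level, but some lists leaned to one side gene by gene. Of 10 oligodendrocyte markers, 10 were lower in mean in TG, with a median log2 fold change of -0.30. All TG libraries lay below all WT libraries for 3 of them, and the share of all genes with that pattern was not computed. TG1 was the lowest library, with a median of -0.66 relative to the WT mean. The oligodendrocyte marker with the smallest p was Opalin (log2 fold change -0.77, limma adjusted p = 0.786). It was the 1 of 10 past the unadjusted threshold, where 2.78% of all genes were lower in TG. Of 7 border macrophage markers, 6 were higher in mean in TG, with a median of 0.35, and 0 passed the unadjusted threshold. Of 10 endothelial markers, 9 were higher in mean, with a median of 0.12. Past the unadjusted threshold were 2 of the 10, both higher in TG, against 3.13% of all genes. The summed level of 12 microglial markers was 111.9 to 126.0 FPKM in WT and 104 to 134 FPKM in TG, and that of 9 astrocyte markers was 500 to 565 and 502 to 529 FPKM. The 7 markers of border macrophages summed to 2.89 to 4.47 FPKM in WT and 4.16 to 4.81 FPKM in TG. The 10 oligodendrocyte markers summed to 667 to 835 and 518 to 767 FPKM, and the 8 neuronal markers to 1386 to 1489 and 1394 to 1592 FPKM. Mural cells summed to 40.2 to 58.9 and 38.4 to 61.5 FPKM, the meninges to 17.9 to 38.2 and 23.7 to 30.0 FPKM, and blood to 143 to 202 and 159 to 165 FPKM. Their part in the values of the 5 genes was not tested, apart from adjustments for a microglia score and for an endothelium score. Under neither did a member pass the adjusted threshold.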

How the data were processed

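Hippocampal RNA of 3 WT and 3 TG mice was sequenced. The authors counted reads per gene with HTSeq and deposited FPKM, reads scaled to gene length and to the reads of each library. The builds GRCm38 and mm10 come from the submitters' processing notes, and the aligner is not given in the sources used here. The labels and the study's methods name different RNA and library kits, and which was used could not be settled. Multiplied by gene length, 100% of the deposited FPKM values were whole multiples of 1 read per library (tolerance 0.05 reads), which gave the reads.

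The 20952 of 54532 genes whose mean FPKM reached 0.1 were fitted on log2(FPKM + 0.1) with limma (version 3.58.1, R 4.3.3; trended empirical Bayes, two-sided, no covariate), with Benjamini-Hochberg adjustment and calls at 0.05. Fold changes on this scale understate those of low genes. Intervals from reads cover counting error only. Ratios and shares were compared with exact permutation tests over 20 labelings. The script was tested on simulated data. On the recovered reads, limma-voom called 0 genes at adjusted p under 0.05. Alternatives covered pseudocount, filter, scaling, covariates, the replicate block and each library left out.

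The members and lists were chosen with earlier results of these data known. The study itself displayed Gas6 after seeing these libraries. Named were the members, in each list the gene of smallest p and the most abundant gene, for each member the 3 protein-coding genes of highest Pearson r with a mean FPKM of at least 1, and Slc1a2. Starts and ends of the 5 genes in GENCODE vM21 equalled the deposited ones. Coding stretches came from GENCODE vM21 and promoters from RefSeq GRCm38.p6, where 5 of 5 symbols matched, with Biopython 1.88. The RefSeq start of Tyro3 lay 1781 bases from the deposited start.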

Additional observations from a re-analysis of the deposited data

How the results depend on the processing

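No alternative brought a member under an adjusted p of 0.05 (smallest 0.538, in 20 alternatives each). The sign was kept in 19 of 20 alternatives for Gas6, 15 for Pros1, 20 for Axl, 20 for Mertk and 17 for Tyro3. The log2 fold change of Gas6 was -0.017 with the choroid plexus score. That of Pros1 was 0.031 with the choroid plexus score, 0.036 with Ttr, 0.048 without WT1, 0.0079 without TG1 and 0.080 with TG3 alone. That of Tyro3 was -0.014 without WT2, -0.00288 without TG3 and -0.00738 with the endothelium score. The Mertk share was 1.29 percentage points higher in TG without WT2. With TG3 alone the log2 ratio of Gas6 to Pros1 differed by -0.073 and the Tyro3 share by 0.412 percentage points. The causes were not tested. Leaving out each library gave 0.17 to 0.46 for Gas6, -0.12 to 0.048 for Pros1, 0.12 to 0.22 for Axl, 0.013 to 0.13 for Mertk and -0.014 to 0.072 for Tyro3, and shares from -1.52 to 1.29 for Mertk. The unadjusted p of Gas6 passed 0.05 without TG3 (0.00374), with values rescaled to TPM (0.0389), over protein-coding genes only (0.0437), with limma-voom (0.0344) and with the replicate block (0.0475, log2 fold change 0.31), and that of Axl did without WT1 (0.0331). In their deviations from the group means, same-numbered libraries correlated at 0.0125, 0.0434 and 0.00314. Differently numbered ones correlated at -0.0274 to 0.0159. With 3 libraries per group, these values cannot settle whether the replicate numbers pair the libraries. Rescaling to TPM moved the median of all genes to 0.03. Over all genes, 2 were called in the fit reported, 9 without the variance trend, 11 without TG1, 1 without TG2, 2 with TPM, 1 with a mean FPKM of at least 1, and 0 in the other alternatives. With 3 libraries per group, the interval of Gas6 spans 0.990 to 1.55-fold, and the low read numbers limit Pros1 most. Median-of-ratios scaling was not run.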
